A study of Ovis aries with 2 samples.

Results

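The genes described here encode subunits of the mitochondrial respiratory chain and of the ATP synthase, read cell by cell in a carotid artery of sheep and in an implanted cell-free vessel graft. They were chosen by symbol alone: subunits of complexes I, III, IV and V whose names begin with NDUFA, NDUFB, NDUFC, NDUFS, NDUFV, UQCR, ATP5 or COX4 to COX8, without assembly factors and NDUFA4L2, plus the 13 protein genes of the mitochondrial genome. This gave 68 of the 21890 genes in the matrices. Of these, 55 are nuclear (29 in complex I, 6 in complex III, 11 in complex IV with NDUFA4, and 9 in complex V) and 13 are mitochondrial (7, 1, 3 and 2 in the same order). NDUFA5 stood under 2 gene identifiers, ENSOARG00020003833 and ENSOARG00020027027. Subunits whose symbol found no match, among them COX5B, COX6A1, COX6C, COX7A2 and ATP5MC1, are not analysed here.

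Tissue of the graft, titled H2R5-ATEV, and of a native carotid artery came from sheep of 1 to 2 years, taken out 12 weeks after implantation. The series title calls the graft cell-free. The native sample is titled an aorta but is a carotid artery by its other labels. Both vessels were perfused with collagenase, elastase and neutral protease from the lumen, red cells were lysed, and each suspension gave 1 droplet library. With 1 library for each vessel there are no replicates, the number of animals is not given, and no difference below has a test between the vessels. Intervals are exact at 95% and cover counting error only.

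The respiratory chain moves electrons from NADH and succinate to oxygen and pumps protons, and the ATP synthase (complex V) uses the proton gradient to make ATP. Most subunits are made from nuclear genes and imported, whereas a few core subunits are made inside the organelle from mitochondrial DNA, whose genes are read as long joint transcripts that are cut into separate messages. Endothelium is known for meeting much of its energy demand by glycolysis, and contractile smooth muscle and macrophages shift between glycolysis and respiration with their state.

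The native library held 43183715 UMIs (unique molecular identifiers, counted transcripts) in 11371 barcodes and the graft library 36238351 in 1229. Barcodes with at least 1000 UMIs were kept: 6911 native barcodes with a median of 3494 UMIs, and 1012 graft barcodes with a median of 23274. Each kept barcode was thinned to 1000 UMIs and put in a class by its own marker transcripts. It needed at least 3 marker UMIs and at least 2 times those of the next class. This gave 2890 native and 177 graft endothelial-like barcodes, 52 and 115 smooth muscle-like, 628 and 292 macrophage-like, 466 and 51 T or NK-like, and 986 and 83 fibroblast-like. A class made this way is a range of marker counts and not a cell type. At the limits lay 592 of the native and 37 of the graft endothelial-like barcodes, and 27.2% of native and 28.5% of graft barcodes stayed unnamed. The median of every other class's markers was 0 in each class, except 1 fibroblast marker UMI in smooth muscle-like barcodes of both libraries. Of the 83 graft fibroblast-like barcodes, 53 fell in clusters named for smooth muscle and 28 in fibroblast clusters. When all kept barcodes of both libraries were clustered together, the libraries filled different clusters of the same name. Of the endothelial-like clusters 1 held 194 graft and 6 native barcodes, and the other 6 held 0 to 4 graft barcodes each. The smooth muscle-like clusters held 83 native and 3 graft barcodes, and 1 native and 198 graft. The macrophage-like clusters held 14 native and 283 graft, 331 and 5, and 411 and 32 barcodes. The libraries shared 7 barcode sequences.

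Summed over the barcodes of a class, the nuclear subunits took a larger part of the transcripts in the graft in each of the 5 marker classes. The gap was widest in endothelial-like barcodes. With clusters as classes instead, the fibroblast-like fold turned to 0.951 (0.908 to 0.996), and the interval of the T or NK-like fold, 1.03 (0.990 to 1.06), included 1. With each barcode thinned to 1000 UMIs the macrophage-like fold was 1.03 (0.976 to 1.09). The thinned T or NK-like fold was 1.06 (0.946 to 1.19) and the fibroblast-like fold 1.04 (0.953 to 1.14). All 3 thinned intervals included 1. In endothelial-like marker-class barcodes the nuclear subunits made up 0.535% of native UMIs (0.531 to 0.539) and 0.938% of graft UMIs (0.931 to 0.945), a fold of 1.75 (1.74 to 1.77). In smooth muscle-like barcodes the shares were 0.522% and 0.771%, a fold of 1.48 (1.42 to 1.54). In macrophage-like barcodes they were 0.604% and 0.794%, a fold of 1.31 (1.30 to 1.33). These 3 classes had the largest gaps in depth between the libraries, with endothelial-like medians of 3288.5 native and 31041 graft UMIs per barcode. Fibroblast-like barcodes held 0.541% and 0.634%, a fold of 1.17 (1.15 to 1.19). T or NK-like barcodes, whose depths were close (medians of 5716 and 6643 UMIs), held 0.637% and 0.679%, a fold of 1.07 (1.02 to 1.11).

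The spread over single barcodes was wide beside these differences. The quartiles of the native endothelial-like barcodes were 0.302% and 0.794% around a median of 0.586%, and those of the graft 0.375% and 1.03% around 0.705%. The ranges overlapped in every class. Macrophage-like medians were 0.612% and 0.641%, much closer than the summed shares, which weight deep barcodes more.

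**Figure D1:**
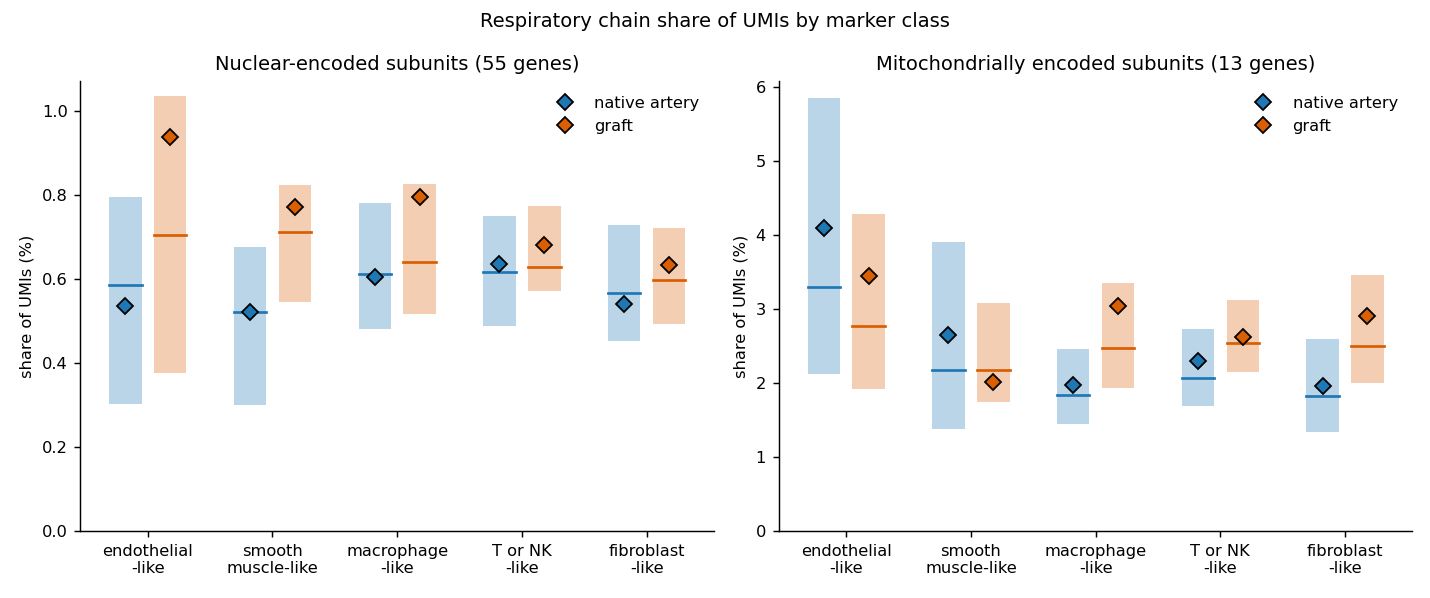
Share of all UMIs (%) taken by the nuclear (left) and mitochondrial (right) respiratory chain genes in each marker class, native artery in blue and graft in orange: diamonds are summed shares, bars span the first to the third quartile of single barcodes and lines are their medians. The graft diamond is above the native diamond for nuclear genes in all 5 classes (0.938% against 0.535% in endothelial-like barcodes), while for mitochondrial genes it is lower in endothelial-like and smooth muscle-like barcodes and higher in the other classes.

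All 4 complexes took part in the pooled endothelial-like difference. Nuclear complex III subunits, which pass electrons from ubiquinol to cytochrome c, had the highest fold, 2.04 (1.98 to 2.11). Complex V followed at 1.93 (1.90 to 1.97), complex IV, the terminal oxidase, at 1.76 (1.72 to 1.79), and complex I, the NADH dehydrogenase, at 1.57 (1.55 to 1.60). In macrophage-like barcodes complex III again had the highest fold, 1.67 (1.60 to 1.74), against 1.25 to 1.34 for the other complexes. In smooth muscle-like barcodes the folds of the 4 complexes lay between 1.43 and 1.55, and their intervals overlapped. Among barcodes of 10000 to 20000 UMIs, complex III did not lead in the first 2 classes. The members' median log2 ratios for complexes I, III, IV and V were 0.23, 0.24, 0.20 and 0.32 in endothelial-like barcodes. They were 0.12, 0.01, -0.01 and -0.06 in macrophage-like and 0.05, 0.15, -0.01 and 0.05 in smooth muscle-like barcodes.

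The nuclear share also moved with the depth of the barcode, and depth differed between the libraries. Over all kept graft barcodes it rose from 0.339% at 1000 to 2500 UMIs to 0.599% at 10000 to 20000 and 0.946% at 50000 or more, while the 217 graft barcodes under 1000 UMIs held 0.820%. Native barcodes held 0.763% under 1000 UMIs and 0.689% at 1000 to 2500, then 0.483%, 0.513%, 0.572% and 0.596% in the 4 bands from 2500 to 50000 UMIs. Both libraries thus rose with depth from 2500 UMIs on, over a narrower range in the native artery. Graft endothelial-like barcodes of 50000 or more UMIs, 57 of 177, held 1.04%, and no band of native endothelial-like barcodes exceeded 0.666%. Between 10000 and 20000 UMIs in both libraries, 353 native and 17 graft endothelial-like barcodes held 0.573% and 0.679%, a fold of 1.19 (1.13 to 1.24). This band is called matched depth below. The other endothelial-like bands went both ways, with folds of 0.421 at 1000 to 2500 UMIs (20 graft barcodes), 1.31 at 2500 to 5000 (14), 0.808 at 5000 to 10000 (11) and 1.27 at 20000 to 50000 (58). The graft was therefore lower in 2 of the 5 bands. At 10000 to 20000 UMIs the macrophage-like fold was 1.00 (0.971 to 1.03) and the smooth muscle-like fold 1.06 (0.979 to 1.14). The pooled difference of these classes was thus larger than that in this band. Elsewhere the macrophage-like folds were 0.744 at 1000 to 2500 and 1.07 at 20000 to 50000 UMIs, and the smooth muscle-like folds 0.397 at 1000 to 2500 (9 graft barcodes) and 1.34 at 5000 to 10000 (5). T or NK-like barcodes had folds of 1.05 at 2500 to 5000 UMIs, 1.13 (1.07 to 1.20) at 5000 to 10000, which is their matched depth below, and 0.968 at 10000 to 20000 (8 graft barcodes). Fibroblast-like folds were 0.817, 1.18 and 1.25 in the 3 bands from 5000 to 50000 UMIs. Whether depth reflects cell size, doublets or capture was not tested; the doublet caller Scrublet marked 0 native and 3 graft barcodes, which is no working call.

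**Figure D2:**
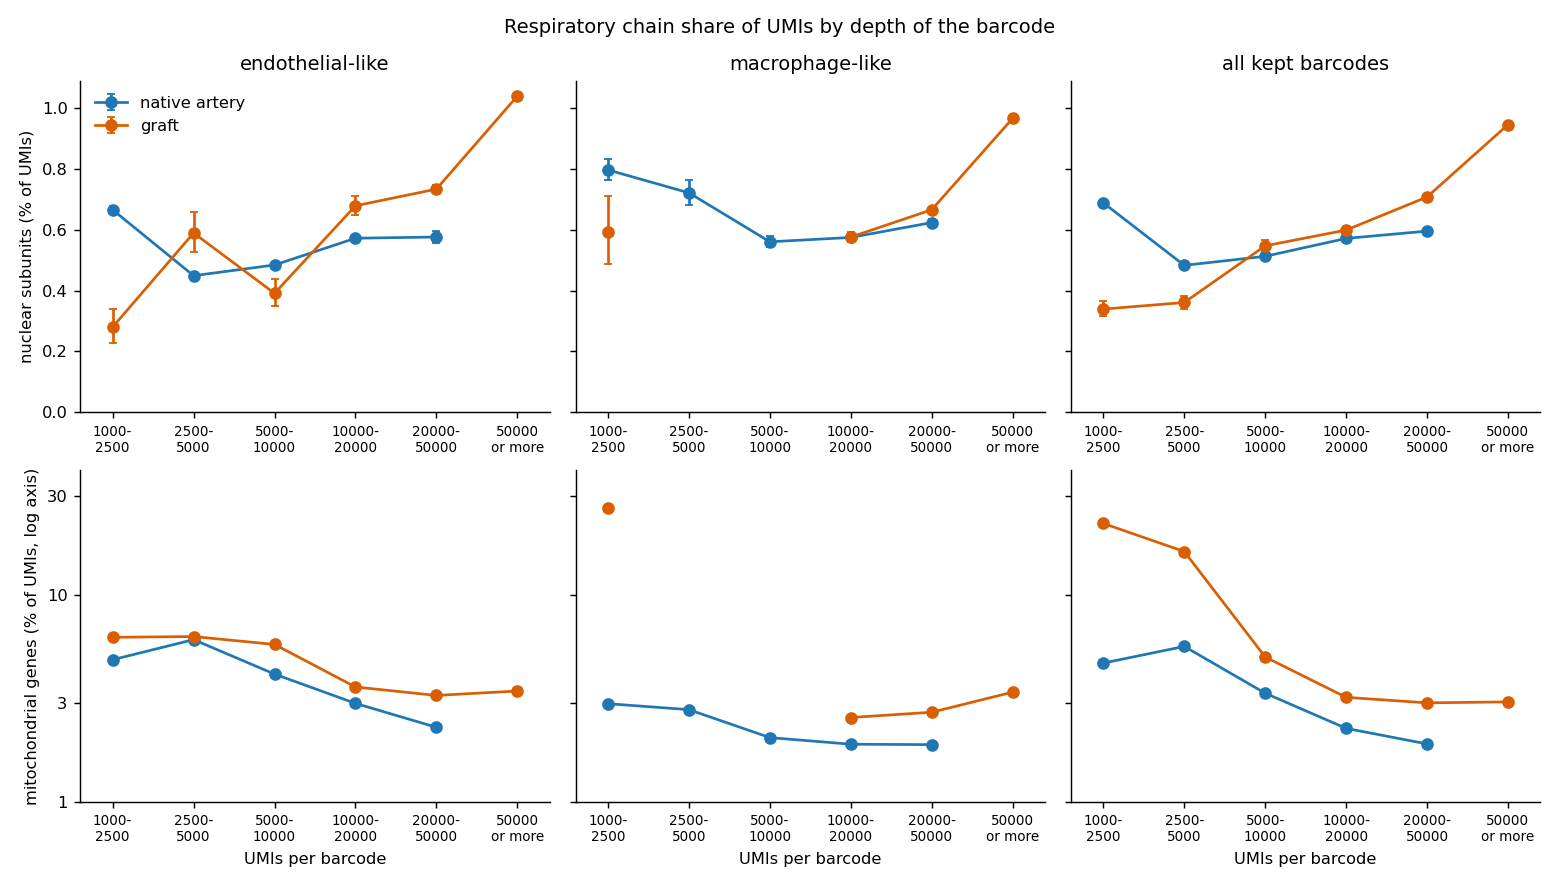
Share of UMIs (%) from nuclear subunits (top) and mitochondrial genes (bottom, log axis) in barcodes grouped by their UMI number, for endothelial-like, macrophage-like and all kept barcodes; bars are 95% counting intervals and bands with too few barcodes are left out. In the graft the nuclear share climbs to 0.946% in the deepest barcodes, and the mitochondrial share lies above the native share in every band shown for both libraries.

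Among single members, 34 of the 50 nuclear subunits with a mean of at least 10 counts per 1000000 UMIs (CPM) over the 2 libraries were at least 1.5-fold higher in graft endothelial-like barcodes, and 0 were 1.5-fold lower. Folds of this count are on CPM plus 5. Of all 8854 genes so measured in that class, 19.6% were higher and 17.3% lower by the same limit. The members' median log2 ratio was 0.73, beside 0.02 over all genes. By complex the higher members were 15 of 28 in complex I, 5 of 6 in complex III, 5 of 7 in complex IV and 9 of 9 in complex V. Between 10000 and 20000 UMIs the count was 10 higher and 1 lower of 49, against backgrounds of 17.3% and 19.9%.

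COX5A, a structural subunit around the catalytic core of complex IV (ENSOARG00020023434), stood highest in endothelial-like barcodes, at 79.0 CPM in the native artery (74.5 to 83.7) and 256 in the graft (245 to 268). Its log2 ratio was 1.64, and at matched depth the levels were 79.3 and 142 CPM. NDUFA8, an accessory subunit of complex I, was at 47.7 and 153 CPM, a log2 ratio of 1.58. ATP5F1A, the alpha subunit of the ATP synthase head, was at 133 and 387 CPM, a log2 ratio of 1.51. All 3 were again higher in the graft at matched depth, by log2 ratios of 0.80, 0.52 and 0.62, though the interval of the NDUFA8 fold, 0.898 to 2.31, includes 1. The catalytic beta subunit ATP5F1B was at 175 and 370 CPM. COX4I1, the regulatory subunit of complex IV, was at 438 and 678 CPM pooled but 444 and 467 at matched depth.

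The complex I members of high level moved least in this class. NDUFA1 had a log2 ratio of 0.21, NDUFB11 of 0.15 and NDUFB10 of 0.09, all within the 1.5-fold limit. NDUFS4, an accessory subunit of the NADH-oxidising arm, was at 115 CPM in the native artery and 110 in the graft. The complex III members named for their level were all past the limit: UQCR10 at 181 and 451 CPM, UQCRB at 176 and 289, and the Rieske iron-sulphur protein UQCRFS1 with a log2 ratio of 0.91. NDUFA4, counted with complex IV, went from 88.6 to 227 CPM pooled, yet was at 91.5 and 85.0 at matched depth.

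Smooth muscle-like barcodes had 27 of 49 nuclear members higher and 0 lower in the graft, with backgrounds of 21.2% and 25.1% and a median log2 ratio of 0.63. The native side rests on 52 barcodes. The highest were complex I subunits: NDUFA8 at 39.6 and 96.9 CPM, NDUFA12 at 60.5 and 140, and NDUFB7 at 90.8 and 204. These native levels stand on 17, 26 and 39 UMIs. COX4I1 went the other way within the limit, at 491 and 436 CPM. Between 10000 and 20000 UMIs 7 of 50 members were higher and 1 lower, where 28.2% of all genes were higher and 22.9% lower, so the members' share lay under the background.

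In macrophage-like barcodes 7 of 49 nuclear members were higher and 0 lower, with backgrounds of 14.1% and 9.70%, so the share of members past the limit was near that of all genes. The pooled median log2 ratio was 0.35, beside 0.04 for all genes, but at matched depth it was 0.009, beside 0.089 for all genes. UQCR10, a small complex III subunit, was at 197 and 383 CPM, ATP5IF1, the inhibitor that stops the ATP synthase from running backwards, at 153 and 293, and UQCRB at 132 and 231. At matched depth UQCR10 was at 178 and 220 CPM and ATP5IF1 at 132 and 155, and 0 of 49 members were past the limit upwards and 1 downwards (backgrounds 14.6% and 7.55%). Lowest were COX6B2, which lay under the level limit, and COX7A1 with log2 ratios of -0.53 and -0.09, and NDUFB3 at -0.01. The neutrophil markers measured, 4 genes, took 0.00133% of native and 0.0775% of graft UMIs in this class, and their part in the result was not tested.

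T or NK-like barcodes had 4 members higher and 2 lower of 50, with backgrounds of 13.6% and 12.2% and a median log2 ratio of 0.05. The highest was COX7A1, described below, followed among nuclear members by ATP5IF1 at 147 and 238 CPM. The lowest were NDUFC2, a membrane-arm subunit of complex I, at 76.0 and 30.4 CPM, ATP5F1C, the rotating stalk of the ATP synthase, at 181 and 105, and NDUFA9 with a log2 ratio of -0.57. The graft NDUFC2 level rests on 11 UMIs. Within 5000 to 10000 UMIs 6 of 50 members were higher and 4 lower, where 18.5% of all genes were higher and 17.3% lower. Fibroblast-like barcodes had 6 members higher and 1 lower of 49 (backgrounds 15.4% and 19.2%), with a median of 0.19. ATP5PF, a stalk subunit of the ATP synthase, was highest there with a log2 ratio of 0.84, and NDUFS4 lowest, at 157 and 89.4 CPM. At matched depth 3 of 50 were higher and 1 lower (17.1% and 19.1% of all genes).

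**Figure D3:**
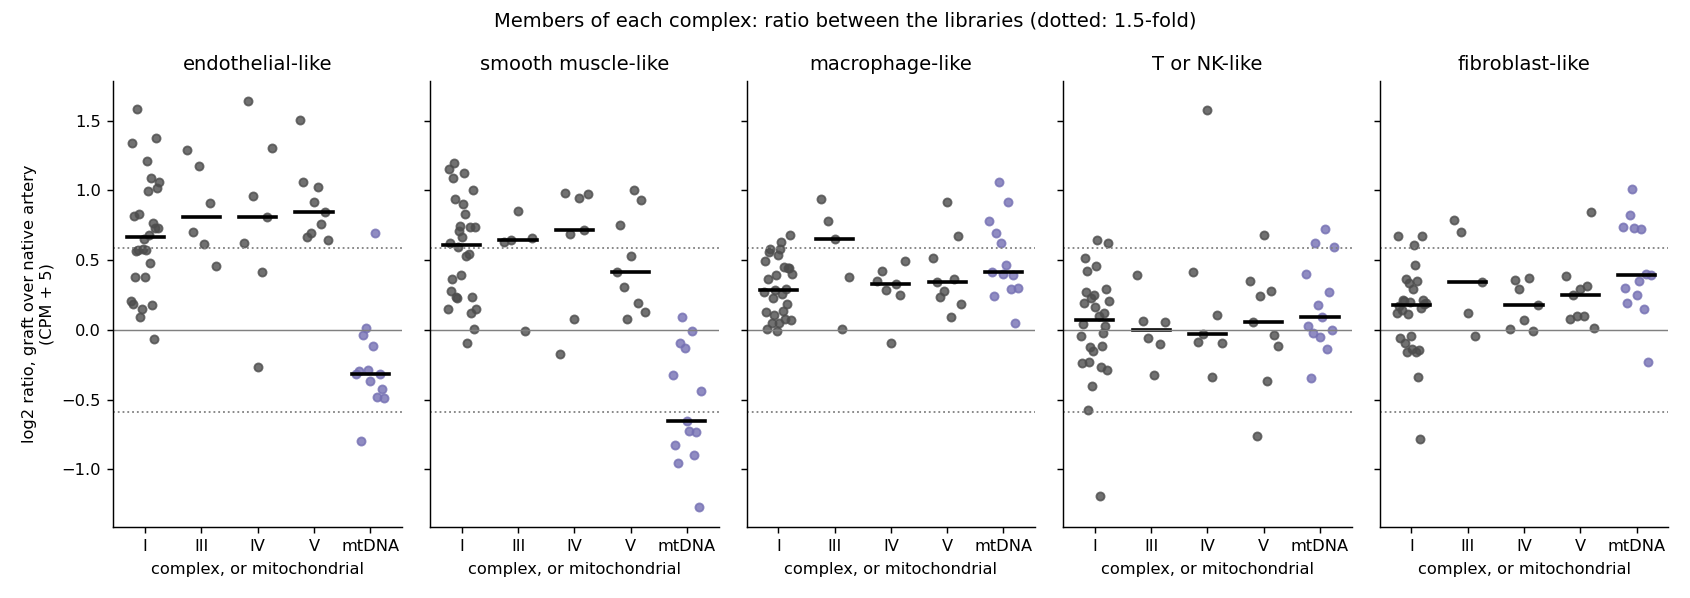
Log2 ratio of graft over native CPM (5 added to both) for each member with a mean of at least 10 CPM, by class; grey points are nuclear subunits of complexes I, III, IV and V, purple points the 13 mitochondrial genes (mtDNA), thick lines medians and dotted lines the 1.5-fold limits. In endothelial-like and smooth muscle-like barcodes the nuclear members lie mostly above 0 (medians 0.73 and 0.63) and the mitochondrial genes mostly below.

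Across the classes, 49 nuclear members reached the level limit in all 5, and 19 of them were higher in the graft in all 5, by any amount. A single nuclear member, NDUFB7 (ENSOARG00020000517), was at least 1.5-fold higher in all 5, and 9 were so in at least 3. The same counts across classes were not made over all genes, so these have no background to be read against. NDUFB7 encodes an accessory subunit on the membrane arm of complex I. It was between 90.8 and 103 CPM in the 5 native classes and between 142 and 209 in the graft. The gene was picked for a 1.5-fold rise in every class, so this gap is no separate result. At matched depth its fold was 1.70 in endothelial-like, 1.38 in smooth muscle-like, 1.31 in macrophage-like, 1.65 in T or NK-like and 1.80 in fibroblast-like barcodes. The smooth muscle-like interval at matched depth, 0.787 to 2.45, includes 1. UQCR10 was also higher at matched depth in all 5 classes, by 1.11-fold in smooth muscle-like to 1.87-fold in fibroblast-like barcodes. The classes of a library share its capture and sequencing and are not replicates.

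Several complex IV subunits come in isoforms that differ between tissues. COX4I1 is the general form and COX4I2 is known from lung and from vascular smooth muscle and pericytes. COX4I1 lay between 436 and 791 CPM in every class of both libraries. COX4I2 reached 11.6 CPM (5 UMIs, 3.78 to 27.2) in native and 5.79 (40 UMIs, 4.14 to 7.89) in graft smooth muscle-like barcodes, and at most 3.19 elsewhere. COX7A1, the form of contractile tissue, was at 60.5 and 64.3 CPM in smooth muscle-like, 62.2 and 65.7 in fibroblast-like and 55.9 and 52.1 in macrophage-like barcodes. Its level was lower in endothelial-like barcodes, 24.1 and 19.3 CPM. T or NK-like barcodes differed between the libraries, 15.3 CPM (44 UMIs, 11.1 to 20.5) against 55.3 (20 UMIs, 33.8 to 85.4). The intervals did not overlap, and within 5000 to 10000 UMIs the levels were 15.2 and 62.9 CPM. COX6B2, a form known from testis, had its highest levels in macrophage-like barcodes, 7.34 CPM (49 UMIs) and 3.57 (39 UMIs). COX6A2, the heart and skeletal muscle form, and COX7B2 stayed under 3 CPM in every class. ATP5MC3, which encodes the rotating c-ring subunit, was past the limit in endothelial-like and smooth muscle-like barcodes, with log2 ratios of 1.02 and 1.00, and at -0.37 in T or NK-like barcodes. COX6B1 and COX8A, the general forms of their subunits, had endothelial-like log2 ratios of 0.96 and 0.81.

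The 13 mitochondrial genes did not follow the nuclear subunits. In endothelial-like barcodes they took 4.09% of native UMIs (4.08 to 4.10) and 3.45% of graft UMIs (3.44 to 3.46), a difference of -0.638 percentage points. Smooth muscle-like barcodes held 2.65% and 2.01%, a difference of -0.635. The other classes differed in the opposite direction, by 1.06 points in macrophage-like (1.98% and 3.04%), 0.327 in T or NK-like (2.30% and 2.62%) and 0.951 in fibroblast-like barcodes (1.96% and 2.91%). Nuclear UMIs per 100 mitochondrial UMIs went from 13.1 to 27.2 in endothelial-like and from 19.7 to 38.4 in smooth muscle-like barcodes. In macrophage-like barcodes this number was 30.5 and 26.1.

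The lower pooled share of endothelial-like barcodes was not present within bands of depth. In each of the 5 bands with both libraries the graft share was higher, by 1.38 points at 1000 to 2500 UMIs (20 graft barcodes), 0.211 at 2500 to 5000 (14), 1.62 at 5000 to 10000 (11), 0.599 at 10000 to 20000 (17) and 0.975 at 20000 to 50000 (58). Shallow native barcodes carried high mitochondrial shares (6.08% at 2500 to 5000 UMIs), and 1160 and 664 of the 2890 native barcodes lay in the 2 shallowest bands. The smooth muscle-like difference had no single direction over the bands: 21.1 points at 1000 to 2500 UMIs (19 native and 9 graft barcodes), -0.890 at 5000 to 10000 (8 and 5) and 0.037 at 10000 to 20000 (16 and 15). Without barcodes of 50000 or more UMIs it was 0.221. The macrophage-like difference kept its sign at matched depth, 0.656 points.

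Shallow graft barcodes stood apart. Over all kept barcodes, unnamed ones included, graft barcodes of 1000 to 2500 UMIs held 22.2% mitochondrial UMIs, against 4.68% in the native artery. Those of 2500 to 5000 UMIs held 16.2% against 5.63%. The classes differed at 1000 to 2500 UMIs. Endothelial-like barcodes held 6.24% in the graft against 4.86%, smooth muscle-like 24.9% against 3.83% and macrophage-like 26.3% against 2.98%. From 10000 UMIs the graft share was 3.004% to 3.20%. Over 20% mitochondrial UMIs were found in 88 graft barcodes (8.70%) and 101 native barcodes (1.46%). Of these, 68 graft and 63 native barcodes were unnamed. Such barcodes often come from damaged cells, as is generally known, and the part of damage here was not tested. Stress and dissociation genes such as FOS and JUN took less of the graft library: 0.762% against 1.97% in endothelial-like, and 0.815% against 1.60% in macrophage-like barcodes. Their part in the respiratory chain shares was not tested. Ribosomal protein genes took 6.48% against 7.09% and 4.87% against 7.84%. With their UMIs left out of the denominator the nuclear folds were 1.74 in endothelial-like and 1.27 in macrophage-like barcodes, and the endothelial-like mitochondrial difference was -0.710 points.

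The make-up of the mitochondrial UMIs separated the libraries more sharply than their total. COX1, a catalytic subunit of complex IV (ENSOARG00020000017), took 13.8% to 15.5% of mitochondrial UMIs in the 5 native classes and 9.54% to 11.9% in the 5 graft classes. COX3, another core subunit of the same complex (ENSOARG00020000023), took 15.1% to 16.8% in the native and 19.1% to 22.8% in the graft classes. The ranges did not overlap, and every class moved the same way. No count of such gaps over all genes is given to read this against, and the classes of a library are not replicates. In endothelial-like barcodes COX1 was at 15.5% (15.4 to 15.6) and 10.6% (10.4 to 10.7), and COX3 at 16.0% and 19.1%. The number of COX3 UMIs per 100 COX1 UMIs was therefore 97.9 to 112 in native and 173 to 233 in graft classes. In CPM, endothelial-like COX3 was at 6529 and 6594 while COX1 was at 6341 and 3641. In macrophage-like barcodes COX3 was at 2987 and 6244 CPM and COX1 at 3051 and 3607.

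**Figure D4:**
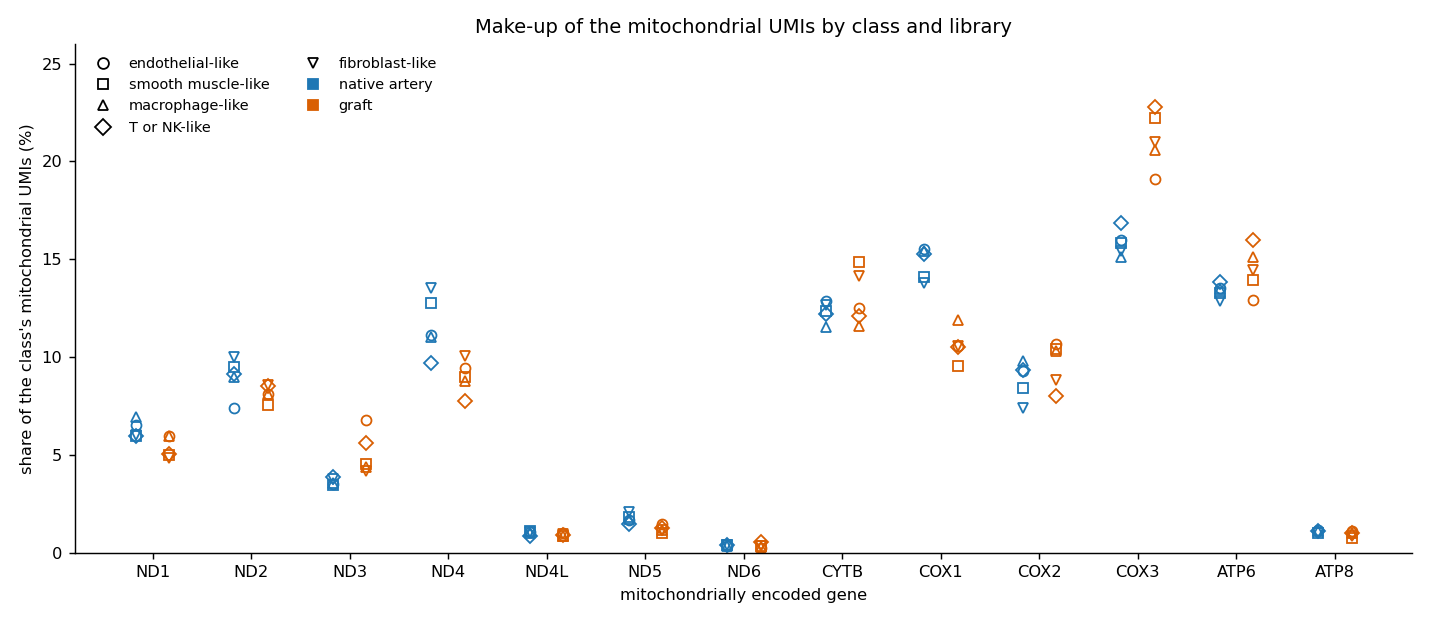
Share (%) of each of the 13 mitochondrial genes among the mitochondrial UMIs of a class, with symbols for classes and blue for native artery, orange for graft. COX1 (13.8% to 15.5% against 9.54% to 11.9%) and COX3 (15.1% to 16.8% against 19.1% to 22.8%) form separate blue and orange groups.

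The class ranges of ND3 and ND5, both core subunits of complex I, also did not overlap, again without a count over all genes. ND3, whose gene lies next to COX3 in the mitochondrial genome, took 3.46% to 3.87% in native and 4.17% to 6.79% in graft classes, with the highest value in graft endothelial-like barcodes. ND5 was lower, 1.47% to 2.08% in native and 0.996% to 1.45% in graft classes. ND1, ND4 and ATP8 were lower in the graft in all 5 classes, with ranges that overlapped between the libraries. ATP6, COX2, CYTB, ND2, ND4L and ND6 differed in both directions between classes: ATP6 was higher in 4 of 5, COX2 in 4, CYTB in 3, and ND2, ND4L and ND6 in 1 each. ND3 was the only mitochondrial gene at least 1.5-fold higher in CPM in graft endothelial-like barcodes (1446 and 2341 CPM), and COX1 the only one 1.5-fold lower. In smooth muscle-like barcodes 7 of the 13 were 1.5-fold lower, led by ND5 at 489 and 200 CPM, where 25.1% of all genes were lower. At matched depth 1 was lower and 1 higher. In macrophage-like and fibroblast-like barcodes 5 were higher, where 14.1% and 15.4% of all genes were, and at matched depth 4 and 2 were higher. COX3 was above its native CPM in all 5 classes by any amount, with 1.06-fold in smooth muscle-like and the highest fold, 2.09, in macrophage-like barcodes. Its endothelial-like fold was the lowest, 1.01, with an interval of 0.999 to 1.02 that includes 1.

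The COX1 and COX3 difference was present at every depth. From under 1000 UMIs to 50000 or more, COX1 lay between 14.95% and 15.4% of native (3 barcodes in the deepest band) and between 10.2% and 12.2% of graft mitochondrial UMIs. COX3 lay between 15.2% and 17.6% in native and between 20.4% and 22.5% in graft bands. Barcodes over 20% mitochondrial UMIs, many of them unnamed, showed it too: COX1 at 16.0% native and 12.0% graft, COX3 at 16.1% and 22.5%. Since each library is a separate capture, and the animals are not given, a difference between the vessels and a difference between the libraries or animals cannot be told apart.

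**Figure D5:**
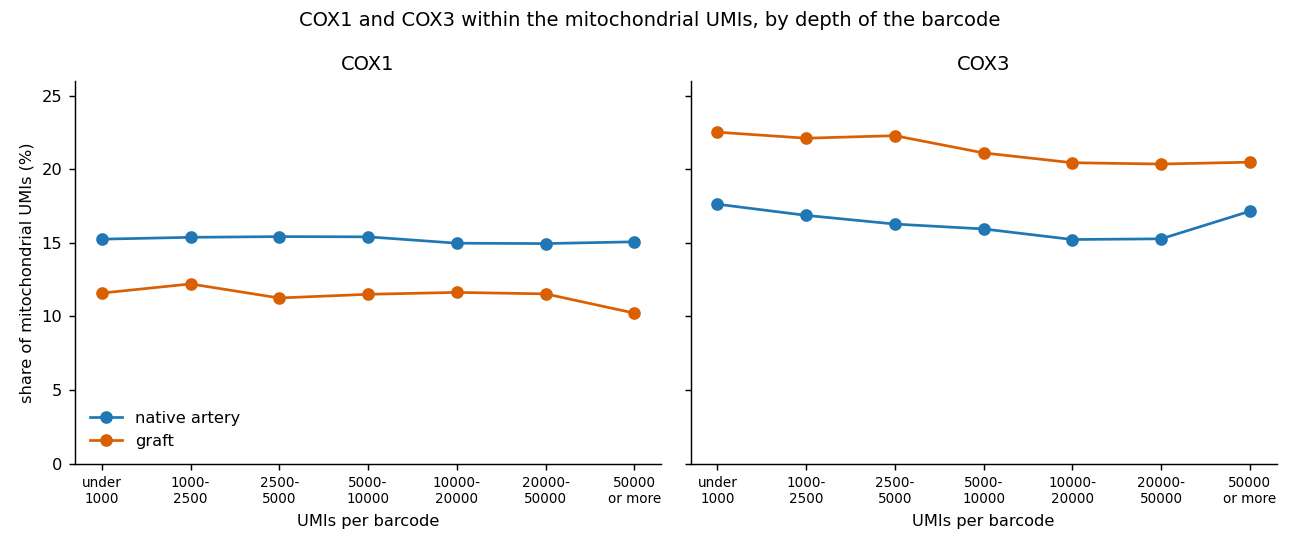
Share (%) of COX1 (left) and COX3 (right) among mitochondrial UMIs of all barcodes in a band of UMI number, native artery in blue and graft in orange. The graft COX1 points lie between 10.2% and 12.2%, under all native points, and the graft COX3 points lie between 20.4% and 22.5%, above them.

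Other mitochondrial genes in lists of known function were read the same way, in all kept barcodes of a class. None of these list counts or levels is given at matched depth, where fewer nuclear members of endothelial-like barcodes were past the limit. The part of depth in them was not tested. Their counts stand beside the shares of all genes past the same limit, 19.6% higher and 17.3% lower in endothelial-like, 21.2% and 25.1% in smooth muscle-like, and 14.1% and 9.70% in macrophage-like barcodes. These shares were 13.6% and 12.2% in T or NK-like and 15.4% and 19.2% in fibroblast-like barcodes. Of the 15 citric acid cycle genes, 9 were higher and 0 lower in graft endothelial-like barcodes. The count was 5 and 1 in smooth muscle-like and 3 and 0 in macrophage-like barcodes, nearer to the shares of all genes. It was 1 and 2 in T or NK-like and 1 and 0 in fibroblast-like barcodes. MDH2, the malate dehydrogenase of the cycle, was at 52.1 and 133 CPM in endothelial-like barcodes, OGDH, a subunit of 2-oxoglutarate dehydrogenase, at 41.7 and 91.7, and SUCLG1, of succinyl-CoA ligase, at 74.9 and 121. Of the complex II genes, 3 of 4 were higher in that class, among them SDHB, the iron-sulphur subunit, at 77.3 and 122 CPM. Of the carriers and porins 3 of 7 were higher, with the outer membrane channel VDAC1 at 52.2 and 147 CPM and the phosphate carrier SLC25A3 at 142 and 317. Oxidative defence genes had 1 higher and 1 lower of 8.

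Of the assembly factors, 2 of 32 were higher and 0 lower in endothelial-like barcodes, with the copper chaperone COX17 at 255 and 205 CPM. In T or NK-like barcodes 3 of 34 were higher and 6 lower, where 13.6% and 12.2% of all genes were. In fibroblast-like barcodes 1 of 31 was higher and 5 lower, where 15.4% and 19.2% of all genes were. Mitochondrial ribosomal proteins had 17 higher and 1 lower of 65 in endothelial-like barcodes, where the higher share was not far above the 19.6% of all genes, and 29 and 3 of 60 in smooth muscle-like barcodes. Genes that copy and express mitochondrial DNA had 0 higher and 1 lower of 8 in endothelial-like barcodes: POLG2, the accessory subunit of the mitochondrial DNA polymerase, at 173 and 105 CPM. TFAM, which packages mitochondrial DNA and starts its transcription, was at 57.9 and 51.6 CPM. Regulators of mitochondrial biogenesis had 2 higher and 2 lower of 10 in endothelial-like barcodes, near the shares of all genes, and 0 and 5 of 10 in smooth muscle-like barcodes, where the transcription factor NRF1 was at 93.1 and 35.3 CPM.

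Genes linked to the response to low oxygen went both ways, with 2 higher and 2 lower of 6 in endothelial-like, 1 and 2 of 8 in smooth muscle-like, 1 and 1 of 6 in macrophage-like, 2 and 1 of 6 in T or NK-like, and 3 and 0 of 8 in fibroblast-like barcodes. HIF1A, the oxygen-sensitive transcription factor, was at 44.0 and 316 CPM in endothelial-like barcodes, and its relative EPAS1 at 258 and 123. In fibroblast-like barcodes both were higher in the graft, HIF1A at 105 and 286 and EPAS1 at 29.2 and 161 CPM. HIGD1A, a hypoxia-induced protein of the inner mitochondrial membrane, was at 22.9 and 52.1 CPM in endothelial-like barcodes, and BNIP3, a mitophagy receptor, at 29.8 and 27.1. NDUFA4L2, a hypoxia-linked relative of NDUFA4 that is not counted among the members, had 0 UMIs in native smooth muscle-like barcodes. In graft smooth muscle-like barcodes it was at 26.8 CPM. Against a set floor of 3 native counts, 6.98 CPM, this would be 3.84-fold higher. That fold is not a lower limit, since the exact interval of 0 native UMIs in this class reaches 8.58 CPM. NDUFA4L2 was at 54.6 and 95.8 CPM in fibroblast-like barcodes.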

How the data were processed

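Expression was read by droplet single-cell RNA sequencing (10x Genomics NextGEM v3.1, per the labels' protocols) in 1 native artery library and 1 graft library. The deposited values are whole-number UMI counts per gene and barcode in filtered matrices, written with Cell Ranger 7.2.0 per the file headers; Seurat 5.0.0, R 4.3.3 and bcl2fastq 2.20.0.422 stand in the submitters' processing notes without a role. As to the genome build, it is not given in the sources used here. Coordinates and sequences are not printed. The matrices list 6435 genes without a symbol, and these held 22.7% of native and 18.8% of graft UMIs.

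Members, marker lists and other gene lists were chosen with earlier results of these data known. Barcodes with at least 1000 UMIs were kept, with no limit on the mitochondrial share and no doublet removal. Classes came from each barcode's own markers; CLEC3B was left out of the fibroblast markers after it was seen in endothelial-like barcodes of both libraries. UMIs were summed over the barcodes of a class. Shares have Clopper-Pearson intervals, CPM exact Poisson intervals and folds exact conditional binomial intervals. A member was compared where its mean over the libraries was at least 10 CPM, and log2 ratios used CPM plus 5. Named with values were the mitochondrial genes, the 3 nuclear members of highest level in complexes I, III, IV and V, isoforms, ATP5IF1, the 3 highest and 3 lowest ratios of each class with at least 30 UMIs, and up to 4 genes of each other list; others were named after their values were seen, and 1 gene that the rule names is not reported here. Alternatives were a minimum of 5000 UMIs, a mitochondrial limit of 20%, thinning to 1000 UMIs, Leiden clusters (2000 variable genes, 30 components, 15 neighbours, resolution 1.0), removal of the highest Scrublet scores, other denominators, another fold limit and no level limit. The scripts were tested on simulated data. Python 3.11.15, scanpy 1.11.5, scipy 1.17.1, numpy 2.4.6 and pandas 2.3.3 were used.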

Additional observations from a re-analysis of the deposited data

Results flagged for a closer look

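The mitochondrial share differed between the libraries in opposite directions in different classes. It was lower in the graft by -0.638 percentage points in endothelial-like and -0.635 in smooth muscle-like barcodes, and higher by 1.06 in macrophage-like, 0.327 in T or NK-like and 0.951 in fibroblast-like barcodes. With 1 library for each vessel, the difference between classes was not tested. Within 10000 to 20000 UMIs the endothelial-like and smooth muscle-like differences were 0.599 and 0.037, so that the opposite directions were seen in the pooled barcodes and not at that depth.

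Barcodes under 1000 UMIs, which no comparison of shares between classes used, carried a high summed mitochondrial share in the graft. The 217 graft barcodes together held 15.7% mitochondrial UMIs and the 4460 native barcodes 4.72%. The medians of single barcodes were close, 2.87% in the graft and 2.62% in the native artery. A part of the graft barcodes thus carried the high summed share.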

How the results depend on the processing

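Shares are folds for nuclear members and percentage points for mitochondrial genes, graft against native; counts are nuclear members at least 1.5-fold higher. Of the alternatives to the 12 main values, 64 gave the same verdict, 52 moved by more than the counting interval or 1.5 times and 4 reversed; the causes were not tested. No paired analysis was possible because each vessel gave 1 library.

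Chosen after seeing the data: within 10000 to 20000 UMIs (5000 to 10000 for T or NK-like) folds of endothelial-like barcodes, then of smooth muscle-like and macrophage-like, were 1.19, 1.06 and 1.00, the points 0.599 and 0.037 (both reversed) and 0.656, and the counts 10, 7 and 0; T or NK-like had 1.13 and 0.491. Without barcodes of 50000 or more UMIs these classes had folds of 1.32, 1.30 and 1.09, points of -0.600, 0.221 (reversed) and 0.784, and counts of 12, 12 and 1. With CLEC3B as a fibroblast marker the endothelial-like values were 1.88 and -0.854.

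Thinned to 1000 UMIs, the folds were 1.29, 1.32 and 1.03 in the same order, and the points -0.472, 1.22 (reversed), 1.35 and 0.213 (T or NK-like). The thinned counts were 11 of 50 (endothelial-like), 4 of 49 (macrophage-like) and 10 of 51 (T or NK-like). These lay under the shares of all genes, 24.5%, 22.8% and 33%. The smooth muscle-like count, 21 of 50, lay above its 28.7%. Lower were 3, 4, 1 and 15 members in endothelial-like, smooth muscle-like, macrophage-like and T or NK-like barcodes. At a minimum of 5000 UMIs the endothelial-like and macrophage-like folds were 1.78 and 1.34, and the points -0.073, -0.477, 1.08 and 0.405 in the order of classes above. With Leiden clusters as classes the smooth muscle-like and macrophage-like folds were 1.57 and 1.26, and the points -0.175, -0.310 and 1.16. The T or NK-like count was then 2 of 50, where 10.6% of all genes were higher. Fibroblast-like barcodes then had a nuclear fold of 0.951 (reversed). Without barcodes over 20% mitochondrial UMIs the smooth muscle-like and macrophage-like points were -0.702 and 1.03. Without the highest Scrublet scores the endothelial-like, macrophage-like and T or NK-like points were -0.603, 1.09 and 0.437. Without ribosomal protein UMIs in the denominator the endothelial-like and smooth muscle-like points were -0.710 and -0.698, and the macrophage-like fold 1.27. At a 2-fold limit the counts were 14 of 50, 6 of 49, 0 of 49 and 1 of 50, where 10.1%, 11.1%, 6.58% and 4.54% of all genes were higher.

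Small classes limit precision: 52 native smooth muscle-like and 51 graft T or NK-like barcodes.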
